A study of Macaca fascicularis with 22 samples.

Results

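The genes of the kynurenine route and of NAD synthesis were followed on arrays of cynomolgus macaque neonates (Macaca fascicularis) of lower and average birth weight. They were found by the identifiers of 9 genes, 7 human RefSeq accessions and 2 probe names: TDO2 (NM_005651), KMO (NM_003679), KYNU (NM_003937), HAAO (probe A_01_P007757), ACMSD (NM_138326), QPRT (NM_014298), NAMPT (NM_005746), NMNAT1 (NM_022787) and NMNAT2 (probe A_01_P004505). NMNAT1 was not among the identifiers of the array, so 8 genes with 1 probe each were measured, among 20217 probes that are not controls. The genes were chosen on measured values: 5 of the 8 (KYNU, HAAO, ACMSD, QPRT and NMNAT2) stand in the study's list of birth weight genes, which was made from these same arrays, and the level by tissue label was known when the set was put together. The birth weight differences of these 5 genes and all levels by tissue label are therefore given as a description with no test, and only TDO2 and NAMPT have a p-value. The probe of KMO was too dim to be tested.

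LBW neonates lay between the 5th and the 25th centile of birth weight and ABW neonates between the 50th and the 75th, so both groups were within the normal range, and the labels describe no treatment beyond birth weight, although the sample titles call ABW control and LBW treated. RNA labelled skeletal muscle (the biceps) was hybridised on 4 LBW and 4 ABW arrays, RNA labelled umbilical cord on 4 and 4, and RNA labelled liver on 3 and 3, which makes 22 one-colour arrays. These are called muscle, cord-labelled and liver-labelled arrays here. The labels place the tissues at birth, while the methods have liver and muscle taken some days later. The array was designed for the rhesus macaque and its probes carry human accessions, so a probe may match the cynomolgus transcript imperfectly. Nothing in the labels ties an array to an animal across tissues, but the methods have liver and muscle taken from the same selected neonates. Within a group the spread is that between these arrays.

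The kynurenine route breaks down tryptophan and in its last part makes quinolinate, from which a cell can build NAD, the coenzyme of redox reactions and the substrate of sirtuins and PARPs. TDO2 opens the ring of tryptophan and is a classical enzyme of hepatocytes. KMO and KYNU turn kynurenine into the substrate of HAAO, whose product either closes by itself to quinolinate or is drawn off by ACMSD, the decarboxylase that leads it away from NAD. QPRT converts quinolinate into a nicotinate nucleotide. NAMPT works in the separate salvage route, which recycles nicotinamide in most tissues, and the NMNAT enzymes make the dinucleotide at the end of these routes. The complete route from tryptophan is known mainly from liver.

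Levels are log2 signals relative to the 75th percentile of the same array, so 0 means a signal equal to that percentile, and they are compared only within a probe. A probe is called well above background where the scanner software flagged it so. The 75th percentile itself was between 315 and 2390 signal units, and 14594 to 17887 probes were well above background on an array. The arrays lay on 6 slides. All ABW muscle arrays were on slide 1 and all LBW muscle arrays on slide 2, and in muscle the effects of slide and of birth weight thus cannot be told apart. The LBW arrays of the cord label were all on slide 5, and the ABW arrays lay on slide 4 (2 arrays) and slide 6 (2 arrays). Of the liver-labelled arrays, slide 3 held all ABW arrays and 1 LBW array, and slide 4 the other LBW arrays. Slide 6 was read with another software version and had a mean net signal of its negative controls of 16.9, against 30.5 to 34.3 on the other slides.

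The liver and cord labels did not go with the markers of those tissues. All 21 probes of a list of hepatocyte genes were higher on every cord-labelled array than on every liver-labelled array, and 10 of the 21 were well above background on no liver-labelled array. The summed level of that list was between 10.4 and 11.8 on cord-labelled arrays and between -0.44 and 0.63 on liver-labelled arrays. On muscle arrays it spread more widely, between 0.78 and 5.16 in ABW and between -1.29 and 4.09 in LBW. F13B, a clotting factor chain, had a mean level of -1.73 on cord-labelled arrays and -8.81 on liver-labelled arrays. Of the 8 probes for matrix and stroma, 7 were instead higher on every liver-labelled array than on every cord-labelled array. The 6 probes for striated muscle were highest on every muscle array. The cause of this was not tested, and the labels are used below as labels only.

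**Figure D1:**
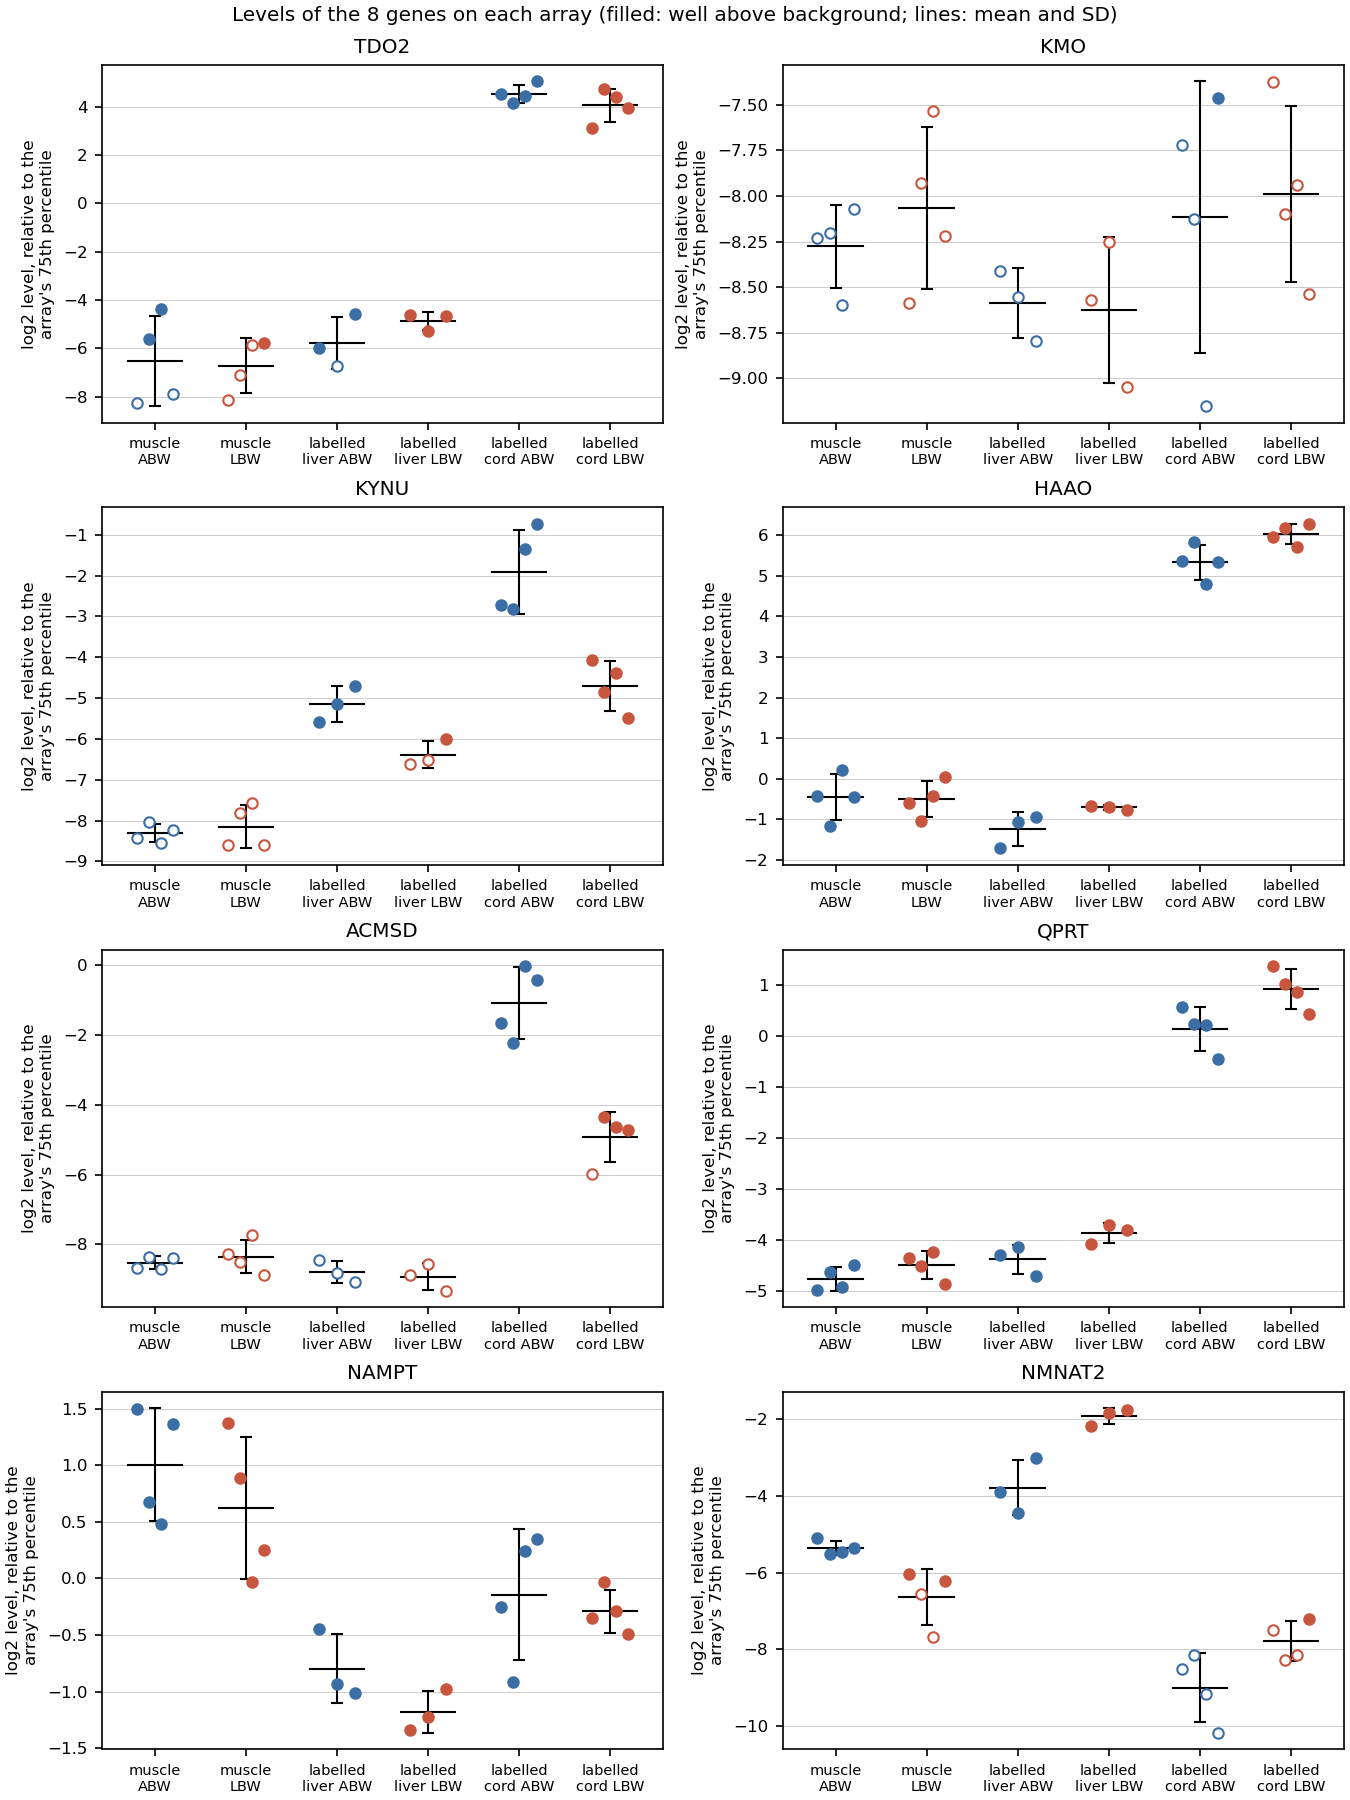
Level of each of the 8 genes (log2 signal relative to the 75th percentile of the array) on the 22 arrays by group, ABW in blue and LBW in red; filled points were well above background, open points were not, and black lines give the mean and SD. TDO2, HAAO, ACMSD and QPRT were higher on each of the 8 cord-labelled arrays than on any other array, NMNAT2 was highest on liver-labelled arrays, and KMO was near background throughout.

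TDO2, HAAO, ACMSD and QPRT were higher on every cord-labelled array than on every muscle array and every liver-labelled array. Of the 17117 probes kept, 9.11% had this pattern and 8.4% had the opposite one, which no gene of the set had. Since the levels by tissue label were known when the genes were chosen, nothing is read from these counts, and the hepatocyte list moved in the same way.

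TDO2, the enzyme that starts the route, had a level of 4.30 on average on the cord-labelled arrays, with a lowest value of 3.13, a median of 4.42 and a highest value of 5.04 over 8 arrays. On liver-labelled arrays it was between -6.74 and -4.59 (6 arrays) and on muscle arrays between -8.27 and -4.36 (8 arrays). It was well above background on 8 of 8, 5 of 6 and 3 of 8 arrays in these labels. The difference between the cord and liver labels was 9.61 on the log2 scale (SE 0.42), and no fold is given because a dim value enters it. The levels with the liver label and muscle overlapped.

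HAAO, which makes the precursor of quinolinate, was well above background on all 22 arrays. It was between 4.79 and 6.29 on cord-labelled arrays, with a median of 5.78, against -1.73 to -0.67 on liver-labelled arrays and -1.17 to 0.22 on muscle arrays. The first label exceeded the liver label by 6.67 (SE 0.24), which is 102-fold, and muscle by 6.17 (SE 0.24). Muscle and the liver label overlapped.

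QPRT, the step from quinolinate to a nucleotide, was also well above background on all 22 arrays and likewise highest with the cord label. Its level was between -0.45 and 1.38 on cord-labelled arrays, between -4.69 and -3.71 on liver-labelled arrays and between -4.97 and -4.23 on muscle arrays. The cord label exceeded the liver label by 4.65 (SE 0.25) or 25.1-fold, and the ranges with the other two labels overlapped.

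ACMSD, the branch away from quinolinate, was well above background on 7 of the 8 cord-labelled arrays and on none of the 14 other arrays, where its signal was about 2 units. It passed the filter on dim probes through the cord-labelled arrays alone. Its mean level there exceeded that with the liver label by 5.85 on the log2 scale (SE 0.79) and that in muscle by 5.43 (SE 0.79). No fold is given because dim values enter both sides. With normexp background correction the difference from the liver label was 2.17. KYNU, the hydrolase in the middle of the route, was well above background on 8 of 8 cord-labelled arrays (-5.49 to -0.73), on 4 of 6 liver-labelled arrays (-6.62 to -4.70) and on no muscle array. Its mean on cord-labelled arrays was at least 12.2-fold that in muscle. In that bound the array's lowest signal well above background takes the place of the dim value. Liver-labelled arrays all lay above the muscle arrays, with a mean difference of 2.47 (SE 0.34). No fold is given for it because dim values enter both sides. The ranges with the cord and liver labels overlapped, and the arrays that overlapped were LBW arrays of the first label and ABW arrays of the second.

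KMO, the monooxygenase before KYNU, was well above background on 1 of 22 arrays, a cord-labelled ABW array with a level of -7.46 and a signal of 14 units. The other 21 arrays had signals of about 2 to 3 units. The step between kynurenine and hydroxykynurenine was therefore not measurable at this signal in any group.

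The NAD end of the set was ordered in another way. NAMPT was well above background on all 22 arrays, with levels between -0.03 and 1.50 in muscle, between -0.91 and 0.35 with the cord label and between -1.34 and -0.45 with the liver label. Every liver-labelled array was below every muscle array, with a difference of 1.80 (SE 0.24, 3.49-fold), while the cord label overlapped both. NMNAT2, a form of the last enzyme that is known from neurons, was highest with the liver label (-4.44 to -1.76, 6 of 6 well above background). It was between -7.67 and -5.11 in muscle (6 of 8) and between -10.2 and -7.21 with the cord label, where 1 of 8 arrays was well above background and signals were 2 to 5 units. The liver-labelled arrays all lay above the muscle arrays, and the muscle and cord-labelled ranges overlapped.

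Within each tissue label LBW was set against ABW, the question of the study. Over all probes limma called 0% in muscle, 0% with the liver label and 0.625% with the cord label at an adjusted p under 0.05. With the cord label KYNU and ACMSD, which act on either side of HAAO, were lower on every LBW array than on every ABW array, while HAAO and QPRT had higher means in LBW. With the liver label KYNU was lower and HAAO, QPRT and NMNAT2 were higher on every LBW array. In muscle NMNAT2 was lower on every LBW array and the route genes overlapped. In bulk RNA, fewer cells of a type and less RNA per cell cannot be told apart.

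**Figure D2:**
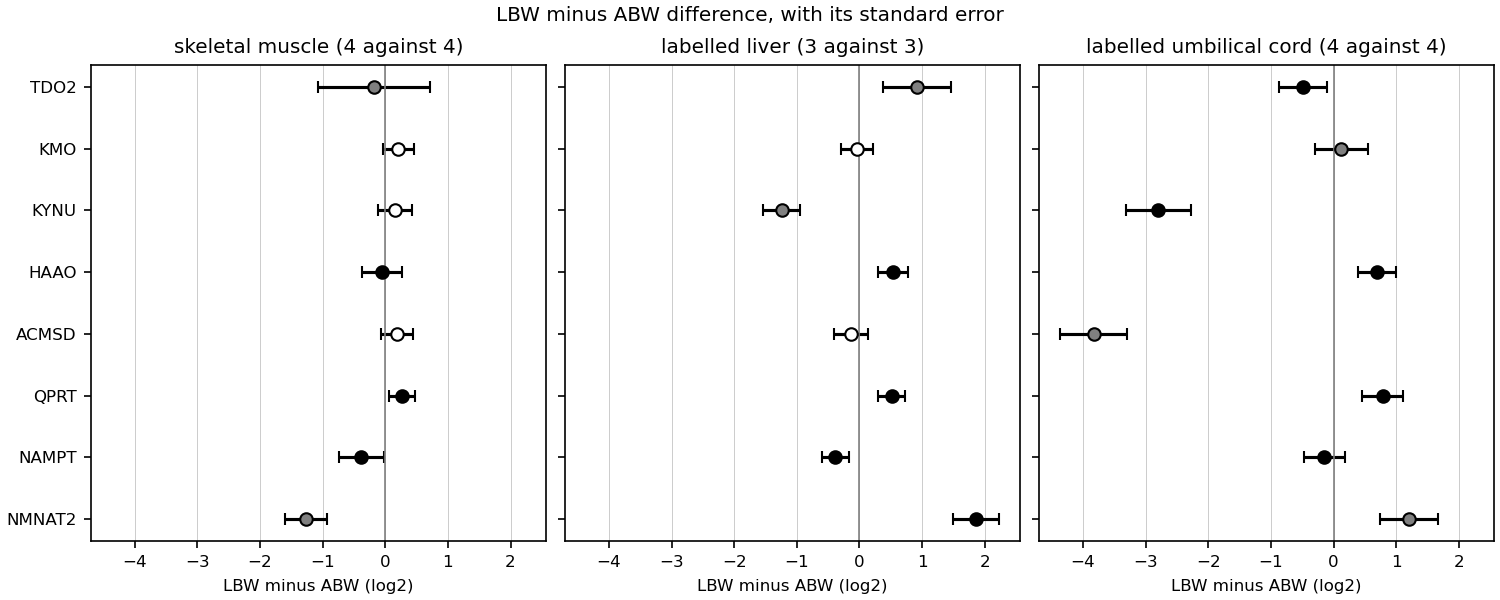
LBW minus ABW difference (log2) of each gene with its standard error from limma, by tissue label; black points were well above background on all arrays of the label, grey ones on some, white ones on none. KYNU (-2.80) and ACMSD (-3.83) with the cord label lie farthest to the left, and NMNAT2 lies left of 0 in muscle (-1.26) and right of it with the liver label (1.86).

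For KYNU with the cord label, the 4 ABW arrays had levels of -2.72, -2.82, -1.36 and -0.73 and the 4 LBW arrays -4.07, -4.85, -4.38 and -5.49. The gap between the groups was wider than 1 log2 unit, and all 8 arrays were well above background. The mean difference was -2.80 (SE 0.52), a 6.94-fold lower level in LBW. The share of probes with every LBW array below every ABW array was 3.21% in this label, and KYNU and ACMSD were the 2 of 7 genes kept that did so. As both come from a list made on this effect, this is no separate evidence.

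For ACMSD the ABW arrays had -1.66, -2.23, -0.03 and -0.44 and the LBW arrays -5.97, -4.35, -4.65 and -4.71, where the lowest LBW value was not well above background. The mean difference was -3.83 (SE 0.54), and no fold is given because a dim value enters it. For both genes the slides of the ABW arrays differed: KYNU was -2.77 on average on slide 4 and -1.04 on slide 6, and ACMSD was -1.95 and -0.23. Against the ABW arrays of slide 4 alone the differences were -1.93 for KYNU and -2.97 for ACMSD, and against those of slide 6 alone -3.66 and -4.69. With normexp background correction they were -1.23 and -1.94. All LBW arrays lay below the ABW arrays of either slide, but no slide held both groups of this label, so slide 5 and LBW cannot be told apart. The 75th percentile was 513 to 626 on the ABW arrays of slide 4, 892 to 2390 on those of slide 6 and 315 to 742 on the LBW arrays. The part of these in the result was not tested.

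**Figure D3:**
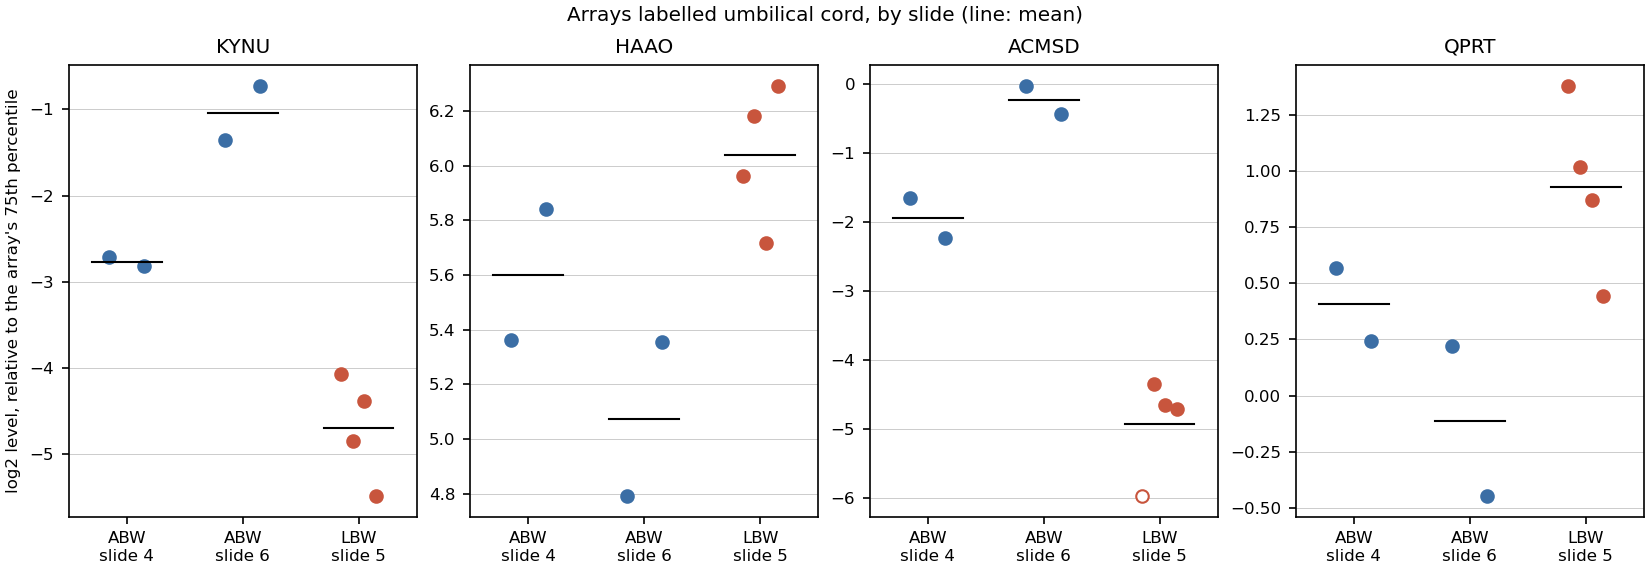
Levels (log2, relative to the 75th percentile of the array) of KYNU, HAAO, ACMSD and QPRT on the 8 cord-labelled arrays, by slide; lines are means and the open point was not well above background. KYNU and ACMSD were lower on slide 5, which held all LBW arrays, than on both slides of ABW arrays. For these genes the ABW arrays of slide 6 lay above those of slide 4, while for HAAO and QPRT the mean was lower on slide 6.

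HAAO and QPRT differed the other way. HAAO was 5.36, 5.84, 4.79 and 5.36 on the ABW arrays and 5.96, 6.18, 5.72 and 6.29 on the LBW arrays, a difference of 0.70 (SE 0.30) or 1.62-fold. QPRT was 0.57, 0.24, 0.22 and -0.45 in ABW and 1.38, 1.02, 0.87 and 0.44 in LBW, a difference of 0.78 (SE 0.32) or 1.72-fold. In both genes the highest ABW array lay above the lowest LBW array, so the groups overlapped. None of the 7 genes was among the 2.65% of probes with every LBW array above every ABW array. Against the ABW arrays of slide 4 alone the differences were 0.44 for HAAO and 0.52 for QPRT, and against those of slide 6 alone 0.96 and 1.04. With signals scaled by spike-in controls, the differences were 0.29 for HAAO and 0.37 for QPRT. The median LBW minus ABW difference of all probes was then -0.42 in this label.

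TDO2 had no difference past the test in this label. It was 4.54, 4.15, 4.43 and 5.04 in ABW and 3.13, 4.73, 4.41 and 3.94 in LBW, and the groups overlapped. The difference was -0.49 (95% interval -1.34 to 0.37, limma adjusted p = 0.722). For NAMPT it was -0.15 (95% interval -0.88 to 0.59, limma adjusted p = 0.917), and against the ABW arrays of slide 4 alone it had the other sign, 0.29. Without ABW replicate 4 it was 0.017. NMNAT2 was 1.21 higher in LBW (SE 0.46), but signals of 2 to 5 units carry this value, and the level of a dim probe moves with the 75th percentile of its array, so no fold is given.

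Of the 21 probes of the hepatocyte list, 11 had a lower mean in LBW with the cord label, where the median difference of the list was -0.06. Its summed level was 10.4 to 11.5 in ABW and 11.1 to 11.8 in LBW. The 6 members of it that carry a symbol stand in the study's list, which was made on these arrays. Among them F13B differed by -3.81 and CP, the copper carrier of plasma, by -3.72. LIPC, the hepatic lipase, differed by -1.46 and LEAP2, a peptide made in liver, by -1.55, while APOA5 and HNF4A were 0.76 and 1.01 higher. The differences of the other probes of the hepatocyte list lay between -1.14 and 0.58. Of the 9 probes for macrophages and blood cells, 6 were well above background on any cord-labelled array, and 2 of these were lower in LBW, with a median of 0.18.

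Over the 22 arrays the probes most like ACMSD were F13B (Pearson r = 0.991), GC, the vitamin D carrier of plasma (r = 0.982), and CP (r = 0.978). Their LBW minus ABW differences with the cord label were -3.81, -2.99 and -3.72, and all stand in the study's list. For KYNU the most like were NM_002184 (r = 0.957), XM_499565 (r = 0.953) and CB548604 (r = 0.937), with LBW minus ABW differences of -0.56, -1.56 and -1.26 in that label. For TDO2 they were NM_000295 of the hepatocyte list (r = 0.985), NM_000187 (r = 0.984) and XR_014546 (r = 0.983), with differences of 0.45, -0.30 and -0.28. These correlations share all arrays and mix differences between labels with those within a label. ACMSD and TDO2 were higher on every cord-labelled array than on every other array, as 9.11% of probes were. KYNU overlapped between the cord and liver labels. The part of such gaps in the correlations was not tested, so the correlations are a description.

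With the liver label NMNAT2 was -3.89, -4.44 and -3.02 on the 3 ABW arrays and -2.17, -1.84 and -1.76 on the 3 LBW arrays. All 6 were well above background and every LBW array was higher. The difference was 1.86 (SE 0.37), or 3.63-fold. KYNU was -5.58, -5.15 and -4.70 in ABW and -6.62, -6.53 and -6.01 in LBW, where 1 of 3 arrays was well above background. The difference was -1.24 (SE 0.29), and no fold is given because dim values enter it. With slide as a block, which leaves the comparison to the 1 LBW array and the ABW arrays of slide 3, NMNAT2 differed by 1.61 and KYNU by -1.48. With normexp the differences were 1.23 and -0.32.

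HAAO was 0.54 higher in LBW (SE 0.24) with the liver label, from -1.73, -1.08 and -0.95 in ABW to -0.67, -0.70 and -0.78. QPRT was 0.52 higher (SE 0.22), from -4.29, -4.14 and -4.69 to -4.07, -3.71 and -3.79. With slide as a block they differed by 0.58 and 0.30. Without ABW replicate 1 HAAO differed by 0.30, and with normexp QPRT differed by 0.25. In HAAO and QPRT the LBW mean was the higher one with this label and with the cord label. Of all probes 8.82% had every LBW array higher in this label and 3.21% had every LBW array lower, against 3 and 1 of the 7 genes kept. These genes come from the study's list made on birth weight in these same arrays. Neither the counts nor the shared direction of HAAO and QPRT are therefore separate evidence. TDO2 was 0.92 higher in LBW (95% interval -0.38 to 2.22, limma adjusted p = 0.891) and for NAMPT the difference was -0.38 (95% interval -0.92 to 0.15, limma adjusted p = 0.883). ACMSD could not be compared, since it was well above background on none of these arrays. With slide as a block TDO2 differed by 1.14 and NAMPT by -0.54. TDO2 was 0.19 with normexp, 0.43 without ABW replicate 2 and 1.51 without ABW replicate 3. Of the macrophage and blood list 6 of 9 probes were well above background on any liver-labelled array, and 5 of these were lower in LBW, with a median of -0.66. The summed level of the list was 6.86 to 8.02 in ABW and 5.64 to 7.95 in LBW. Of the matrix and stroma list 7 of 8 were lower, with a median of -0.28. The part of these in the differences was not tested.

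In skeletal muscle NMNAT2 was -5.11, -5.52, -5.46 and -5.35 on the ABW arrays and -6.05, -6.56, -7.67 and -6.21 on the LBW arrays. The LBW arrays all lay lower, and 2 of the 4 were not well above background. The difference was -1.26 (SE 0.34) on signals of 2 to 23 units, and no fold is given because dim values enter it. With a floor on dim signals it was -0.88 and with normexp background correction -0.073. Of all probes 1.92% had every LBW array lower in muscle and 8.61% had every LBW array higher, against 1 and 0 of the 7 genes kept. As NMNAT2 comes from the study's list made on these arrays, this is no separate evidence. All 8 probes for matrix and stroma had lower means in LBW muscle, with a median of -0.82 and a summed level of 6.53 to 7.04 in ABW and 5.71 to 6.68 in LBW, and their part was not tested.

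The other genes overlapped between LBW and ABW muscle. NAMPT was 1.50, 0.68, 0.48 and 1.37 in ABW and 1.38, 0.89, -0.03 and 0.26 in LBW, a difference of -0.38 (95% interval -1.19 to 0.42, limma adjusted p = 0.664). TDO2 differed by -0.19 (95% interval -2.20 to 1.83, limma adjusted p = 0.948), with 3 of 8 arrays well above background, and its sign changed with normexp (0.11), without ABW replicate 2 (0.12), without ABW replicate 3 (0.54) and without LBW replicate 1 (0.29). The part of the hepatocyte list, whose summed level spread widely over the muscle arrays, was not tested. HAAO differed by -0.05 (SE 0.33) and QPRT by 0.27 (SE 0.21). KYNU, ACMSD and KMO were well above background on no muscle array.

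Whether the birth weight difference differed between tissue labels was tested for TDO2 and NAMPT. The interaction had a limma adjusted p of 0.902 for TDO2 and 0.990 for NAMPT, with 1.01% of all probes called. Its fit took all arrays as independent, although muscle and liver-labelled arrays may share neonates.

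Other genes of the 2 routes were taken from a list of 32 accessions in 4 roles, of which 27 had a probe and all 27 probes were kept. At an adjusted p under 0.05 limma called 0 of the 27 in muscle, 0 with the liver label, 0 with the cord label and 0 in the interaction. At an unadjusted p under 0.05 it found 2, 1, 5 and 3 of 27, against 14.7%, 5.99%, 8.94% and 10.09% of all probes, and the methods' t-test found 0, 1 and 3 within the labels, and 0 after adjustment. The median LBW minus ABW difference of the list was -0.07 in muscle, 0.08 with the liver label and 0.06 with the cord label, against 0.07, 0.06 and -0.0097 over all probes. Every cord-labelled array was above all other arrays for 4 of the 27 (NM_194294, NM_016228, NM_022568 and NM_017881), against 9.11% of all probes, and below them for 0, against 8.4%. The probes at an unadjusted p under 0.05, named after their values were seen, were NM_001775 (-0.76) and SIRT6 in muscle and NM_012240 (0.58) with the liver label. With the cord label they were NM_001775 (-1.12, well above background on 3 of 8 arrays), NM_016228, NM_145201, SIRT6 and PARP4, and in the interaction NM_016228, NM_145201 and PARP4. NADSYN1, SIRT6 and PARP4, which are among the 27, stand in the study's list made on these arrays. The counts at an unadjusted p are therefore no separate evidence.

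**Figure D4:**
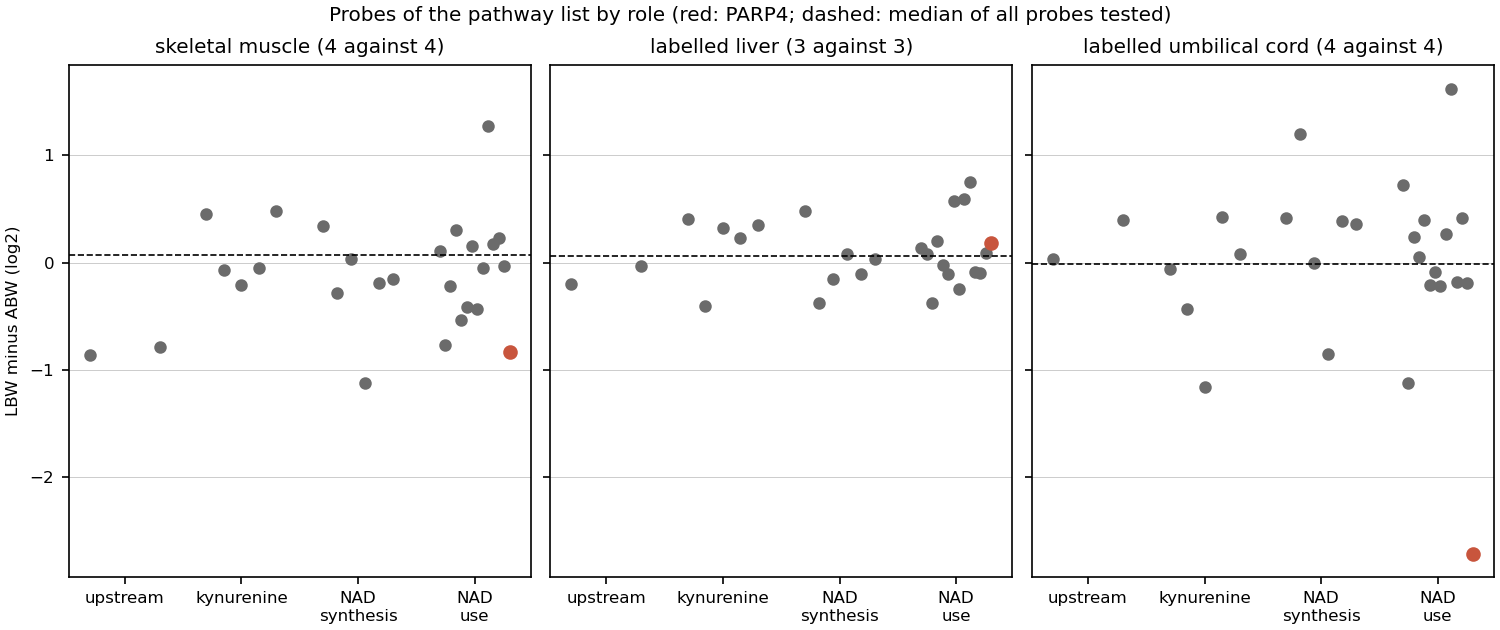
LBW minus ABW difference (log2) of the 27 probes of the pathway list by role and tissue label, with PARP4 in red and the median of all probes tested as a dashed line. The points lie around that line in each label, and PARP4 with the cord label (-2.71) lies farthest from it.

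The role with the largest single difference was NAD use. PARP4, a member of the PARP family, which splits NAD, was -1.85, -1.58, -1.55 and -0.91 on the ABW cord-labelled arrays and -4.15, -3.60, -5.88 and -3.10 on the LBW arrays. The groups did not overlap, but the difference of -2.71 (SE 0.54) had a limma adjusted p of 0.0712 (with normexp -1.26, adjusted p = 0.237), and the gene stands in the study's list made on these arrays. With slide as a random block the adjusted p was 0.0177, and over the other alternatives it was between 0.0656 and 1. No slide held both groups of this label, so the random block cannot tell slide and birth weight apart.

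In the role of NAD synthesis the largest difference was that of NM_145201, 1.20 (SE 0.47, limma adjusted p = 0.514) with the cord label. Among the enzymes that take kynurenine or its products elsewhere it was that of NM_016228, -1.16 (SE 0.42, limma adjusted p = 0.447) in the same label. Its LBW arrays (-2.66 to -1.23) all lay below its ABW arrays (-1.20 to 0.29). Upstream, in parallel to TDO2, it was that of NM_002164 in muscle, -0.86 (SE 0.95, limma adjusted p = 0.721), with ABW arrays between -4.82 and -0.06 and LBW arrays between -4.51 and -2.20. Without ABW replicate 4 it was -0.015. None of these passed the test. SIRT6, named here after its values were seen, had the lowest unadjusted p of the list in muscle, with a difference of 1.27 (SE 0.38, limma adjusted p = 0.176), and differed by 1.62 with the cord label (SE 0.53, limma adjusted p = 0.389). SIRT6, an NAD-dependent deacylase, stands in the study's list too.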

How the data were processed

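RNA was labelled in one colour and hybridised to an Agilent rhesus array. The intensities deposited by the authors are the spot signals of Agilent Feature Extraction (10.1.1.1, and 10.5.1.1 on slide 6) after background subtraction, with median pixel signals beside them. A table of log2 values that the authors deposited was scaled to the 75th percentile and centred per tissue. It served as an alternative. The 2 spots of each probe were averaged without outlier spots (143 in all), and log2 signals were reduced by the 75th percentile of the array. Probes well above background on 75% of the arrays of any group were kept (17117 of 20217). LBW and ABW were compared within each tissue label with limma 3.58.1 in R 4.3.3, and the interaction in a fit of 6 groups. P-values were adjusted by Benjamini-Hochberg over all probes kept, and each fit was tested on simulated data. There the interaction test made a larger share of false calls than the tests within labels, so its share of probes called is not read as a result. Intervals of differences are at 95%.

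A floor on dim signals was used for the bound ("at least") of KYNU and as an alternative only. The number of arrays limits the precision. The genes and lists were chosen with earlier results of these data known. Of the pathway list, genes named are those with an adjusted p under 0.05 and, per role, the largest difference among probes well above background on all arrays of a label. Probes named by an unadjusted p or by their cord-label pattern lie outside this rule. For TDO2, KYNU and ACMSD the 3 most correlated probes are named. Symbols come from the study's additional file, and a probe without one is called by its accession. Alternatives covered background correction (normexp, offset 50), scaling (median, quantile, 6 spike-in controls), a floor, filters, outlier spots, the methods' tests, blocks for replicate number and slide, single slides, and leaving out each array. Sequences and coordinates of the probes were not used here.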

Additional observations from a re-analysis of the deposited data

Results flagged for a closer look

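NMNAT2 differed in opposite directions between tissue labels. Every LBW array was below every ABW array in skeletal muscle (-1.26 on the log2 scale, SE 0.34) and above every ABW array with the liver label (1.86, SE 0.37). The difference between these effects was not tested, because the gene stands in the study's list made on these arrays. In muscle 2 of the 4 LBW arrays were not well above background. No array stood apart from its group for the 7 genes kept in the 28 groups of 4 arrays examined, where chance would give about 1 in 20.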

How the results depend on the processing

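The direction of the differences of KYNU and ACMSD with the cord label, and of NMNAT2 and KYNU with the liver label and NMNAT2 in muscle, was kept under every alternative run, but their sizes moved. With normexp background correction KYNU was -1.23 and ACMSD -1.94 with the cord label, KYNU -0.32 and NMNAT2 1.23 with the liver label, and NMNAT2 -0.073 in muscle. With single slides of ABW arrays KYNU was -1.93 (slide 4) and -3.66 (slide 6). Scaled by spike-in controls, HAAO was 0.29 and QPRT 0.37 with the cord label. Leaving out 1 array gave -3.10 to -2.40 for KYNU and -4.21 to -3.48 for ACMSD with the cord label, and -1.45 to -0.91 for NMNAT2 in muscle and 1.53 to 2.24 with the liver label.

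The cord label minus the liver label was 7.61 for TDO2, 2.17 for ACMSD, 3.53 for QPRT and -1.33 for NMNAT2 with normexp. It was 7.23 for HAAO and 5.21 for QPRT by spike-in controls, and -4.33 for NMNAT2 with a floor. TDO2 in muscle changed sign with normexp (0.11) and over single arrays left out (-0.76 to 0.54), and NAMPT with the cord label against slide 4 alone (0.29) and over single arrays left out (-0.40 to 0.017). In no alternative did TDO2 or NAMPT pass the test (adjusted p 0.367 or more). Of the pathway list, 1 probe (PARP4) was called with slide as a random block and 0 under the other settings (47 counts) and with single arrays left out (44 counts). That block cannot tell slide and birth weight apart, since no slide held both groups of the cord label. The cause of these changes was not tested.

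Arrays of the same replicate number did not deviate together (correlations between -0.22 and 0.30), so the numbers were not taken as pairs. With the replicate block 0 probes of the pathway list were called in each label. Signal limits the low probes: KMO in all labels, ACMSD outside the cord label, KYNU in muscle and NMNAT2 with the cord label cannot show a birth weight difference here.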
